A study of Mus musculus with 8 samples.

Results

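The 10 genes described here are the cell surface and endosomal Toll-like receptors Tlr1, Tlr2, Tlr4, Tlr6, Tlr7, Tlr8, Tlr9 and Tlr13, the lipopolysaccharide co-receptor Cd14 and the inflammasome sensor Nlrp3. They were found by gene symbol among the 30387 genes of the deposited table, and each had 1 line with a value in every library. RNA-seq had been done on primary white adipocytes isolated from epididymal fat, in 4 groups of 2 libraries each. Wild-type mice (WT) and Ad-Yap/Taz-KO mice were fed normal chow, termed standard diet (SD) here, or high-fat diet (HFD) for 4 weeks, beginning in week 5 of life according to the series text. The methods of the study give a slightly later start. Ad-Yap/Taz-KO mice carry the Adipoq-Cre transgene, in which the adiponectin promoter drives Cre, and are homozygous for floxed alleles (Taz fl/fl and Yap fl/fl) of the genes that encode the transcriptional co-activators TAZ and YAP. The deletion is thus constitutive and directed at adipocytes, and other cells that stay in the preparation would keep both genes, which was not measured. WT mice were littermates. Floxed littermates lacking Cre were the controls of a related, inducible line according to the methods, while for the constitutive line used here the alleles of the WT mice are not given. The libraries of a group came from separate mice according to the study, although the labels do not say so. All p-values rest on the spread between 2 libraries a group.

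Toll-like receptors recognise microbial molecules through an extracellular or endosomal leucine-rich domain and signal through adaptors such as MyD88 to NF-kappaB. Tlr2 forms heterodimers with Tlr1 or Tlr6 that bind bacterial lipopeptides, Tlr4 detects lipopolysaccharide with the help of CD14 and MD-2, and Tlr7, Tlr8, Tlr9 and Tlr13 reside in endosomes and sense nucleic acids. NLRP3 is a cytosolic sensor that, after priming through receptors of this kind, assembles with ASC and caspase-1 into the inflammasome, which matures interleukin-1 beta. In adipose tissue these sensors are best known from macrophages, while Tlr4 and Tlr2 are also described in adipocytes themselves.

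Values are normalized read counts, that is, counts divided by a size factor for each library and rounded. Estimated depth was 13.99 to 22.325 M reads on genes. The deleted genes were lower in Ad-Yap/Taz-KO libraries on both diets: Wwtr1, which encodes TAZ, was at 5594 and 4743 in WT against 2441 and 1957 in Ad-Yap/Taz-KO on SD, and at 7121 and 6807 against 2060 and 2707 on HFD. Yap1 was at 2776 and 2717 against 1669 and 1699 on SD, and at 2468 and 2333 against 1549 and 2068 on HFD. The genotypes did not overlap for either gene, and Wwtr1 passed the test on both diets (limma, adjusted p = 0.000969 on SD and 3.11e-05 on HFD), while Yap1 passed on SD (0.0238) and missed it on HFD (0.0591). The call of Yap1 on SD was lost with no filter on low values (0.0844), with only the 2 groups compared (0.053), with the WT HFD libraries averaged (0.0746) and in 6 of 8 fits with a library left out. On HFD its log2 difference was -0.42, was called without Ad-Yap/Taz-KO HFD replicate 2 (-0.63, adjusted p = 0.0119) and came to -0.037 with all libraries scaled to the same total. Counts over whole genes include exons outside the deleted part, so residual reads do not measure deletion. For genes of 100 to 500 and of 1000 to 5000 reads the 2 WT HFD libraries were closer to each other than those of any other group, with a squared difference of 5.09 and 6.19 times the Poisson expectation against 7.88 to 15.5 and 35.3 to 92.3 times elsewhere. For genes of 5 to 20 reads this was not so (4.88 times, against 4.68 to 6.47). For the genes named at the outset, calls that rest on the WT HFD libraries are therefore also given with these libraries averaged, counted as 1 sample. Of the pathway genes and cell type markers, only Tnfaip3 is given in this way. The other calls among them that rest on the WT HFD libraries, and that of Wwtr1 on HFD, are given without it.

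Positions are on the mouse genome build GRCm38. Tlr2 lies on chromosome 3 (83836272 to 83841767), Tlr4 on chromosome 4 (66827584 to 66930284), Tlr9 on chromosome 9 (106222598 to 106226883) and Nlrp3 on chromosome 11 (59541568 to 59566956). Tlr1 (64924679 to 64933563) and Tlr6 (64952031 to 64960097) are neighbours on the minus strand of chromosome 5, and Tlr8 (167242696 to 167264329) and Tlr7 (167304929 to 167330558) are neighbours on the minus strand of the X chromosome, which also carries Tlr13 (106143204 to 106160493). No exon of a member overlapped an exon of another gene. Of 75-base stretches, the length of a read, 10.61% in Tlr1 and 9.25% in Tlr6 also occurred in another gene, in part in each other, and reads from them were discarded by the authors' counting. For the other 8 genes this share was 0.

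Promoter sequences were available for 7 of the 10 genes, as 10 windows from 250 bases before to 50 bases after a transcription start (RefSeq, GRCm38.p6). The following 4 are shown (chr3:83841559-83841858 on the minus strand, chr9:106222348-106222647, chrX:106143025-106143324 and chr11:59541319-59541618 on the plus strand), because Tlr2 and Tlr9 had the most similar course over the 8 libraries of any 2 members, at different levels, and Tlr13 and Nlrp3 were higher in Ad-Yap/Taz-KO libraries on both diets. Capitals mark matches to the motifs searched.
Tlr2: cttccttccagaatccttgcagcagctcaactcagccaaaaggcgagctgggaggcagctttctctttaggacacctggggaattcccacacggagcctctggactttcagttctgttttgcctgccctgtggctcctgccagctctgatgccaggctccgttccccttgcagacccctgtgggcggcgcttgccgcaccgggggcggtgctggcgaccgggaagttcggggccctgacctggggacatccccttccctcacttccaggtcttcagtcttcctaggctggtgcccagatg
Tlr9: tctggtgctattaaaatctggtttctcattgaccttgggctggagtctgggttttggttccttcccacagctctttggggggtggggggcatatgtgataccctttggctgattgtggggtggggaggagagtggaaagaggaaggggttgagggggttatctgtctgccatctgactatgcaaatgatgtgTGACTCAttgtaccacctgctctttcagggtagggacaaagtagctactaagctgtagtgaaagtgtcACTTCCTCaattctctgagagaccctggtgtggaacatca
Tlr13: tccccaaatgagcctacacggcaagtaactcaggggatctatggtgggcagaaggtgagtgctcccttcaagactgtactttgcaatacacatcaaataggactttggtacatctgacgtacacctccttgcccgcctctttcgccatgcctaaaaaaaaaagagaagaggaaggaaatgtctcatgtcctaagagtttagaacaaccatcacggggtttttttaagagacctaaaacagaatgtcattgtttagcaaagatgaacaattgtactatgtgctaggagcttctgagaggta
Nlrp3: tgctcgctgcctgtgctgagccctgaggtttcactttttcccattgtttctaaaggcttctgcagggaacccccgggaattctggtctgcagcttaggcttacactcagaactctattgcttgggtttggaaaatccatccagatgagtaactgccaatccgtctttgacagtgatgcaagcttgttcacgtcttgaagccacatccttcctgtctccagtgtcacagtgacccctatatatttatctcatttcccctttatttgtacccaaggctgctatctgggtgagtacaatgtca
The 4 motifs named here were searched on both strands. The TEAD motif GGAATG, bound by the partners of YAP and TAZ, was in 14.66% of 32851 promoter windows and in none of the 10 windows. The motif GAGGAAGT of PU.1, a factor of myeloid cells, was in 3.2% of all windows and in 2 of these, at position -23 of a Tlr1 window and on the opposite strand at position 11 of Tlr9. The AP-1 motif TGANTCA was in 7.81% of all windows and in the Tlr9 window at position -58, and the NF-kappaB motif, GGGA and TTTCC with any base between them, was in 0.41% and in no member window. No match overlapped another. A match describes these letters only. Other forms of these motifs were not searched, so an unmarked stretch may still hold one.

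On HFD, 9 of the 10 genes were higher in Ad-Yap/Taz-KO than in WT libraries, from 3.52-fold for Tlr9 to 41-fold for Tlr1, and Tlr4 was the exception. Genes were called where the limma adjusted p did not exceed 0.05 and the log2 fold change was 0.59 or more, which 17.1% of the 18800 genes tested reached in the upward direction and 15.1% in the downward direction (32.2% in all). The median log2 fold change was 3.38 over the 10 genes and 0.10 over all genes tested. On SD, 5 of the 10 genes were called higher and 0 lower, namely Cd14, Tlr7, Tlr8, Tlr13 and Nlrp3, against 3.21% of all genes called higher and 1.5% lower (4.71% in all), with medians of 1.58 and -0.01. Both Ad-Yap/Taz-KO libraries were above both WT libraries for 9 genes on HFD and for 6 on SD, as they were for 36.5% and 22.8% of all genes tested. Fold changes are on the log2(value + 1) scale and depend on the pseudocount for low genes: the plain ratio of group means on HFD was 33 for Tlr1, 36 for Tlr13 and 16.6 for Tlr6, against fitted values of 41, 39.9 and 13.4.

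**Figure D1:**
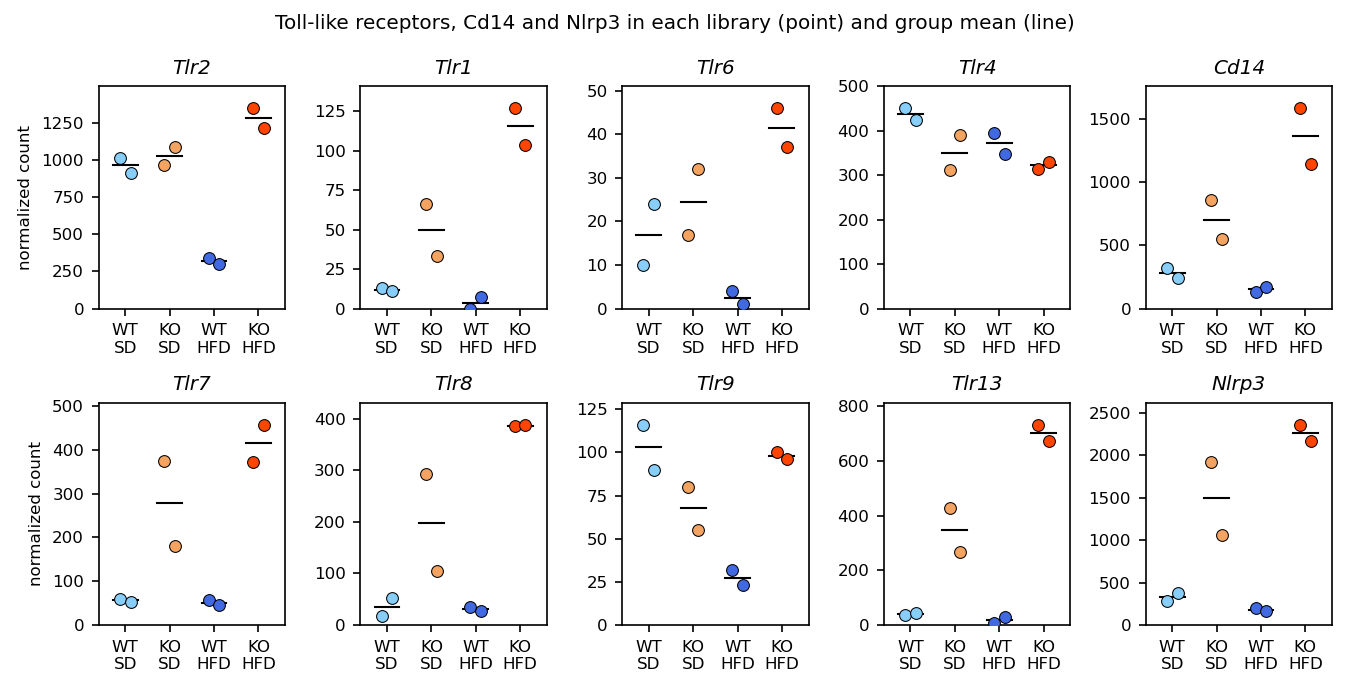
Normalized count (y axis, linear, from 0, with its own scale for each gene) of the 10 genes in each of the 8 libraries; points are libraries, lines are means of the 2 libraries of a group, and KO stands for Ad-Yap/Taz-KO. In 9 panels the KO HFD points lie above both WT HFD points, Nlrp3 reaching 2359 and 2171 against 202 and 160, and in the Tlr4 panel all groups lie between 311 and 451.

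Tlr2, the shared subunit of the lipopeptide receptors, was at 1014 and 911 in WT against 963 and 1084 in Ad-Yap/Taz-KO on SD, and at 340 and 300 in WT against 1346 and 1214 in Ad-Yap/Taz-KO on HFD. The genotypes overlapped on SD and were far apart on HFD, where the WT libraries were the lowest of all. The difference on HFD was 2.00 on the log2 scale (SE 0.168, limma adjusted p = 2.9e-06), a 3.99-fold higher level. On SD it was 0.09 with a 95% interval of -0.28 to 0.45 (adjusted p = 0.846).

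Its partners Tlr1 and Tlr6 were far less abundant. Tlr1 was at 13 and 11 in WT against 66 and 33 in Ad-Yap/Taz-KO on SD, and at 0 and 7 in WT against 127 and 104 in Ad-Yap/Taz-KO on HFD. All Ad-Yap/Taz-KO libraries were above all WT libraries, and the 0 allows up to 3 reads. The difference was 5.36 on HFD (SE 0.874, limma adjusted p = 0.000563) and 1.88 on SD (SE 0.874, adjusted p = 0.297). Tlr6 was at 10 and 24 in WT against 17 and 32 in Ad-Yap/Taz-KO on SD, and at 4 and 1 in WT against 46 and 37 in Ad-Yap/Taz-KO on HFD. It overlapped between genotypes on SD and was separate on HFD, by 3.74 (SE 0.796, limma adjusted p = 0.00322). With so few reads in WT the size of both differences is loosely set, and across other pseudocounts, filters and scalings it ranged from 3.49 to 7.09 for Tlr1 and from 2.25 to 4.28 for Tlr6, with the call kept in all 8 settings that tested them. Tlr1 was at 3.86 without WT HFD replicate 1 and at 6.86 without WT HFD replicate 2, and was called both times.

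Tlr4, the lipopolysaccharide receptor, was at 451 and 424 in WT against 311 and 391 in Ad-Yap/Taz-KO on SD, and at 396 and 349 in WT against 314 and 331 in Ad-Yap/Taz-KO on HFD. On each diet both Ad-Yap/Taz-KO libraries were below both WT libraries, by a small margin. Such a separation downwards was seen for 33.0% of all genes tested on HFD and 22.2% on SD. The differences of -0.21 on HFD (95% interval -0.65 to 0.24, limma adjusted p = 0.465) and -0.33 on SD (95% interval -0.77 to 0.12, adjusted p = 0.46) did not pass the test, and with all libraries scaled to the same total the value on HFD was 0.18. With the deposited scaling its interval on HFD ended below the log2 limit of 0.59 used for calling a gene higher. Its lower end of -0.65 lay beyond the same limit for calling a gene lower.

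Cd14 (chromosome 18, 36725074 to 36726736), which hands lipopolysaccharide to Tlr4, was higher instead. It was at 323 and 245 in WT against 859 and 547 in Ad-Yap/Taz-KO on SD, and at 132 and 171 in WT against 1582 and 1144 in Ad-Yap/Taz-KO on HFD. The genotypes were separate on both diets, with a log2 difference of 3.15 on HFD (SE 0.262, limma adjusted p = 2.59e-06) and of 1.28 on SD (SE 0.262, adjusted p = 0.0124). The call on SD was lost without Ad-Yap/Taz-KO SD replicate 1 (0.96, adjusted p = 0.0949) and without WT SD replicate 2 (1.08, adjusted p = 0.184), and also with no filter on low values (adjusted p = 0.0853) or with only the 2 groups compared (0.0571).

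Among the endosomal receptors, Tlr7, a sensor of single-stranded RNA, was at 60 and 53 in WT against 374 and 181 in Ad-Yap/Taz-KO on SD, and at 56 and 45 in WT against 372 and 457 in Ad-Yap/Taz-KO on HFD. The Ad-Yap/Taz-KO libraries of both diets overlapped, and all of them were above the WT libraries. The log2 difference was 3.01 on HFD (SE 0.354, limma adjusted p = 4.43e-05) and 2.19 on SD (SE 0.354, adjusted p = 0.00254). Tlr8, its neighbour on the X chromosome and also a sensor of RNA and its breakdown products, was at 18 and 52 in WT against 292 and 105 in Ad-Yap/Taz-KO on SD, and at 35 and 27 in WT against 385 and 388 in Ad-Yap/Taz-KO on HFD. Replicates agreed closely on HFD in Ad-Yap/Taz-KO and differed 2.78 times on SD. The log2 difference was 3.61 on HFD (SE 0.529, limma adjusted p = 0.000258) and 2.47 on SD (SE 0.529, adjusted p = 0.0162), and the latter call was lost without Ad-Yap/Taz-KO SD replicate 1 (1.74, adjusted p = 0.127) and without WT SD replicate 1 (1.73, adjusted p = 0.177), and also with no filter (adjusted p = 0.111) or with only the 2 groups compared (0.117).

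Tlr13, a receptor for bacterial ribosomal RNA, was at 37 and 45 in WT against 427 and 267 in Ad-Yap/Taz-KO on SD, and at 9 and 30 in WT against 732 and 673 in Ad-Yap/Taz-KO on HFD. No group overlapped with another. It was 39.9-fold higher in Ad-Yap/Taz-KO on HFD (log2 5.32, SE 0.46, limma adjusted p = 3.56e-06) and 8.1-fold higher on SD (log2 3.02, SE 0.46, adjusted p = 0.00166). The size on HFD depended on the WT libraries, at 4.50 without WT HFD replicate 1 and 6.14 without WT HFD replicate 2, and the call held without any 1 of the 8 libraries. Tlr9, which binds unmethylated CpG DNA, differed from the other endosomal receptors in its course. It was at 116 and 90 in WT against 80 and 55 in Ad-Yap/Taz-KO on SD, and at 32 and 23 in WT against 100 and 96 in Ad-Yap/Taz-KO on HFD. Ad-Yap/Taz-KO libraries were thus below WT on SD and above WT on HFD, as for 22.2% and 36.5% of all genes tested, each diet taken alone. The log2 difference was 1.81 on HFD (SE 0.401, limma adjusted p = 0.00405), and the difference of -0.62 on SD did not pass the test (95% interval -1.49 to 0.25, adjusted p = 0.482).

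Nlrp3 had the highest counts of the 10 genes in Ad-Yap/Taz-KO on HFD. It was at 278 and 379 in WT against 1925 and 1057 in Ad-Yap/Taz-KO on SD, and at 202 and 160 in WT against 2359 and 2171 in Ad-Yap/Taz-KO on HFD. The groups did not overlap, and Ad-Yap/Taz-KO libraries were higher on either diet. The difference was 12.5-fold on HFD (log2 3.65, SE 0.262, limma adjusted p = 8.12e-07) and 4.38-fold on SD (log2 2.13, SE 0.262, adjusted p = 0.000348).

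The effect of diet within each genotype used the same libraries again, so these values are not independent of those above. In WT, 4 genes were called lower on HFD than on SD and 0 higher, against 9.22% of all genes called lower and 8.74% higher. They were Tlr2 (-1.59, SE 0.168, limma adjusted p = 0.000167), Tlr9 (-1.87, SE 0.401, adjusted p = 0.00834), Cd14 (-0.90, SE 0.262, adjusted p = 0.0313) and Nlrp3 (-0.85, SE 0.262, adjusted p = 0.0392). Tlr1 (-2.20, adjusted p = 0.0936), Tlr6 (-2.39, 0.0525) and Tlr13 (-1.25, 0.0737) had negative values that did not pass. Tlr4 was at -0.23 (adjusted p = 0.441), and Tlr7 at -0.17 and Tlr8 at 0.00 had WT libraries that overlapped between diets. With pseudocount 0.1 Nlrp3 was no longer called (-0.85, limma adjusted p = 0.0521). With both WT HFD libraries averaged, Tlr2 was the 1 gene still called, and Cd14 (adjusted p = 0.156), Tlr9 (0.0607) and Nlrp3 (0.185) were lost. With WT SD replicate 1 left out 1 gene was called, with WT SD replicate 2 or WT HFD replicate 1 left out 2, with Tlr2 among them each time. Without WT HFD replicate 2, Cd14 (adjusted p = 0.0911), Tlr9 (0.0746) and Nlrp3 (0.25) were lost, while Tlr1 (-3.70, adjusted p = 0.0271) and Tlr13 (-2.06, 0.0222) were called beside Tlr2. With libraries scaled to the same total, which moved the median of all genes from -0.08 to -0.48, 7 genes were called lower, with Tlr4, Tlr6 and Tlr13 added. Calls downward rose over all genes as well, from 1734 of 18800 genes tested to 3569 of 18885.

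In Ad-Yap/Taz-KO libraries, 0 of the 10 genes were called between diets, against 1.07% of all genes (0.383% higher and 0.691% lower). An unadjusted limma p under 0.05 was reached by 3 of the 10, and by 2905 of the 18800 genes tested. The 3 members were Cd14 (0.97, limma adjusted p = 0.0974), Tlr13 (1.05, adjusted p = 0.295) and Nlrp3 (0.67, adjusted p = 0.243). In 8 of the 10 genes both HFD libraries were above both SD libraries, the exceptions being Tlr4 and Tlr7, and 22.7% of all genes showed such a separation upwards. In the fit without Ad-Yap/Taz-KO SD replicate 1, which leaves 1 library in that group, the values were 1.30 for Cd14 and 1.098 for Nlrp3.

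The difference between the genotype effects on the 2 diets was tested as an interaction. It was called for 5 genes, all with a larger effect on HFD, against 8.69% of all genes with a positive and 8.73% with a negative value called (17.4% in all). These were Tlr9 (2.43, SE 0.567, limma adjusted p = 0.0151), Tlr13 (2.30, SE 0.65, adjusted p = 0.0307), Tlr2 (1.91, SE 0.238, adjusted p = 0.00153), Cd14 (1.87, SE 0.371, adjusted p = 0.00826) and Nlrp3 (1.51, SE 0.37, adjusted p = 0.0179). For Tlr7 (0.83, 95% interval -0.26 to 1.91) and Tlr8 (1.136, 95% interval -0.49 to 2.76) a diet dependence was not shown. Tlr1 (3.48, adjusted p = 0.0694) and Tlr6 (3.19, adjusted p = 0.0682) had large values with standard errors of 1.236 and 1.126, and Tlr4 was at 0.12. Tlr1 was called without WT HFD replicate 2 (4.98, adjusted p = 0.0312) and Tlr6 with libraries scaled to the same total (3.50, adjusted p = 0.0488). With no filter on low values Tlr2 alone was called, and Cd14 was at an adjusted p of 0.0532. With the WT HFD libraries averaged, the calls of Tlr2 and Cd14 held and those of Tlr9 (adjusted p = 0.0575), Tlr13 (0.0523) and Nlrp3 (0.0756) were lost. With a single library left out, 1 gene was called without WT SD replicate 1, 2 without Ad-Yap/Taz-KO SD replicate 2, and 3 without WT SD replicate 2 or WT HFD replicate 1, and Tlr2 kept its call each time.

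**Figure D2:**
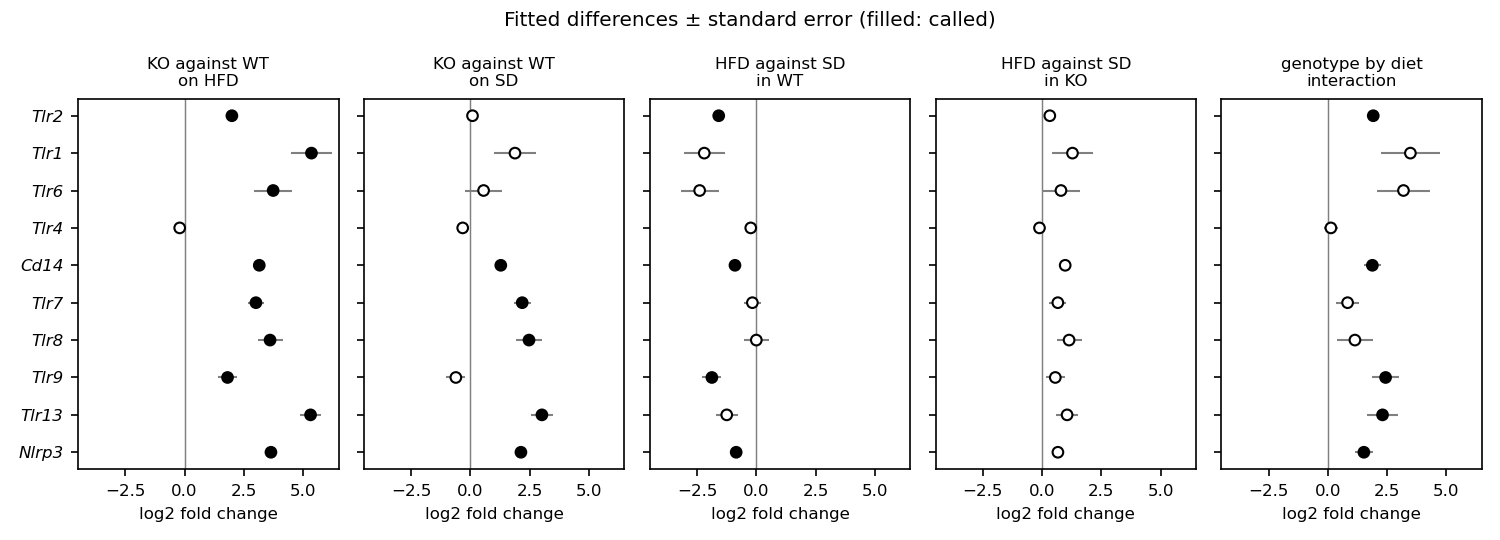
Fitted log2 difference (x axis) of each gene (rows) in 5 comparisons (panels); bars are standard errors and filled points were called. On HFD 9 of 10 points are filled and lie between 1.81 and 5.36, Tlr4 stays at -0.21, and in WT the filled points lie on the side of lower levels on HFD.

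The course over the 4 groups fell into several kinds, which were set apart after the values were seen. Cd14, Tlr7, Tlr8, Tlr13 and Nlrp3 were called higher in Ad-Yap/Taz-KO on both diets. Tlr2 and Tlr9 had no called difference on SD, fell in WT on HFD, and were not called between diets in Ad-Yap/Taz-KO, and their Ad-Yap/Taz-KO HFD levels lay nearer to WT on SD than to WT on HFD. For Tlr9 these levels (100 and 96) were within the WT SD range (116 and 90), while for Tlr2 both (1346 and 1214) were above both WT SD libraries (1014 and 911). As a measure of likeness, log2 values were centred over the 8 libraries and the mean absolute difference between 2 genes was taken, which share the same libraries and depth. Tlr2 and Tlr9 were the closest of all pairs (0.241), followed by Tlr7 with Nlrp3 (0.287), Cd14 with Nlrp3 (0.361) and Tlr8 with Nlrp3 (0.37). The dimer partners Tlr2 and Tlr1 (1.288) and Tlr2 and Tlr6 (0.691) were less alike, as were Tlr4 and its co-receptor Cd14 (1.242).

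Among the 12093 genes whose mean reached 50, those nearest to Nlrp3 were Sash3 (0.113), Ccrl2 (0.145) and Cd53 (0.146), and those nearest to Tlr7 were Stx11 (0.128), Lcp2 (0.153) and Aim2 (0.153). Tlr13 was nearest to Il1rn (0.215), Slc38a1 (0.253) and Pkib (0.276), Tlr8 to Zranb3 (0.245), Ccl4 (0.256) and A630081D01Rik (0.317), and Cd14 to Trerf1 (0.104), Myo1e (0.13) and Cd40 (0.136). For these 5 members the median distance to all genes was between 1.153 and 2.118. Tlr2 was nearest to Arid3a (0.103), Gm37033 (0.12) and Mx2 (0.13), and Tlr9 to Haus8 (0.128), Gm15609 (0.143) and Dennd4b (0.159), with medians of 0.741 and 0.766. Tlr1 was nearest to Pianp (0.314), Gcnt1 (0.335) and P2ry6 (0.359), and Tlr6 to Dennd1c (0.305) and Gldc (0.385). Tlr4, with the flattest course, was nearest to Pard3b (0.054), Prpf4b (0.063) and Adamts1 (0.067), against a median of 0.343.

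Levels were compared between genes as normalized counts per kilobase of exon. In WT on SD, Tlr2 was the most abundant with 336 and 302, followed by Cd14 with 186 and 141. Nlrp3 (68.5 and 93.4) and Tlr4 (81.2 and 76.3) overlapped, Tlr9 (33.4 and 25.9) was next, and Tlr7, Tlr8 and Tlr13 lay between 5.02 and 14.7, with overlap between Tlr7 and Tlr8 and between Tlr8 and Tlr13. Tlr6 and Tlr1 had the lowest means, with libraries between 2.68 and 6.44, and Tlr6 overlapped with both Tlr1 and Tlr8. In Ad-Yap/Taz-KO on HFD the order was another: Cd14 (913 and 661) came first, then Nlrp3 (581 and 535), Tlr2 (447 and 403) and Tlr13 (170.1 and 156). Tlr8 (107 and 108) and Tlr7 (91.1 and 112) overlapped, and Tlr4 (56.5 and 59.6), Tlr1 (38 and 31.1), Tlr9 (28.8 and 27.6) and Tlr6 (12.3 and 9.93) followed without overlap. Tlr13 thus moved from among the least abundant sensors to the fourth place, and Tlr4 from beside Nlrp3 to the seventh.

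Macrophage markers moved with many of these genes, but not with all. On HFD 9 of the 10 genes were called higher in Ad-Yap/Taz-KO, and Tlr4 was at -0.21. On SD 5 were called higher, while Tlr2 (0.09), Tlr4 (-0.33) and Tlr9 (-0.62) were among those not called. In WT 4 were called lower on HFD, and Tlr7 and Tlr8 overlapped between diets. Of 13 markers, 12 were called higher in Ad-Yap/Taz-KO on HFD (median log2 fold change 4.07, Mertk being the exception) and 11 on SD (2.05), and 11 were called lower on HFD in WT (-1.14). Adgre1, which encodes F4/80, was at 150 and 152 in WT against 1699 and 922 in Ad-Yap/Taz-KO on SD, and at 73 and 90 against 3314 and 3178 on HFD. Cd68 was at 143 and 201 against 3183 and 3020 on HFD, Csf1r at 287 and 284 against 3461 and 3441, and the pan-leukocyte gene Ptprc at 289 and 169 against 3224 and 3292. The summed markers came to 6443 and 6425 in WT SD, 32643 and 19007 in Ad-Yap/Taz-KO SD, 3699 and 3684 in WT HFD, and 36448 and 34115 in Ad-Yap/Taz-KO HFD. Fcgr1 in WT HFD replicate 2 was the 1 marker value at 0. In bulk RNA, more cells of a type and more RNA per cell cannot be told apart, and the part of macrophages in the results was not tested.

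Replicates of the Ad-Yap/Taz-KO SD group also differed in these markers. Replicate 1 had 1.72 times the summed macrophage markers of replicate 2, and it had 2.78 times the Tlr8, 2.07 times the Tlr7, 2 times the Tlr1, 1.82 times the Nlrp3, 1.6 times the Tlr13, 1.57 times the Cd14 and 1.45 times the Tlr9 level. Tlr2 (0.89), Tlr4 (0.8) and Tlr6 (0.53) had ratios under 1.

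Levels were also set against 1000 summed macrophage marker counts of the same library. Since this sum was much higher in Ad-Yap/Taz-KO, a gene that did not rise with it is lower on this scale by construction: both Ad-Yap/Taz-KO libraries were below both WT libraries for 86.1% of the 18800 genes tested on HFD and 87.6% on SD, and above them for 3.16% and 1.6%. Nlrp3 lay at 43.2 and 59 in WT against 59 and 55.6 in Ad-Yap/Taz-KO on SD, and at 54.6 and 43.4 against 64.7 and 63.6 on HFD, where its normalized counts differed 12.5-fold. Mertk, which was not called between genotypes, made up 33.5% and 35% of the sum in WT HFD libraries and 2.7% and 3.5% in Ad-Yap/Taz-KO HFD libraries. Without Mertk in the sum, an alternative chosen after seeing the data, Nlrp3 was at 82.1 and 66.9 in WT against 66.5 and 66 in Ad-Yap/Taz-KO on HFD, so that the order of the genotypes turned. The direction of its ratio thus depends on the choice of markers.

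Cd14 on this scale was at 26.3 and 28.8 in Ad-Yap/Taz-KO against 50.1 and 38.1 in WT on SD, below both WT libraries, and overlapped on HFD (43.4 and 33.5 against 35.7 and 46.4). Without Mertk it was below both WT libraries on HFD as well, at 44.6 and 34.8 against 53.6 and 71.5. Tlr7 was at 11.5 and 9.52 against 9.31 and 8.25 on SD and overlapped on HFD (10.2 and 13.4 against 15.1 and 12.2), and without Mertk it overlapped on SD and was lower in Ad-Yap/Taz-KO on HFD (10.5 and 13.9 against 22.8 and 18.8). Tlr8 overlapped on SD (8.95 and 5.52 against 2.79 and 8.09) and was higher on HFD (10.6 and 11.4 against 9.46 and 7.33), where the groups overlapped once Mertk was left out. Tlr1 was at 3.48 and 3.05 against 0 and 1.9 on HFD and at 2.02 and 1.74 against 2.02 and 1.71 on SD. Tlr6 was at 1.26 and 1.08 against 1.08 and 0.27 on HFD and at 0.52 and 1.68 against 1.55 and 3.74 on SD. Without Mertk, Tlr6 overlapped on HFD, and on SD the Ad-Yap/Taz-KO values of both genes were below those of WT.

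Tlr13 was higher in Ad-Yap/Taz-KO on this scale, at 13.1 and 14.1 against 5.74 and 7 in WT on SD and at 20.1 and 19.7 against 2.43 and 8.14 on HFD. Tlr4 was at 9.53 and 20.6 in Ad-Yap/Taz-KO against 70 and 66 in WT on SD, and at 8.62 and 9.7 against 107 and 94.7 on HFD. Tlr2 was at 29.5 and 57 against 157 and 142 on SD, and at 36.9 and 35.6 against 91.9 and 81.4 on HFD. Tlr9 was at 2.45 and 2.89 against 18 and 14 on SD, and at 2.74 and 2.81 against 8.65 and 6.24 on HFD. For Tlr2, Tlr4 and Tlr9 both Ad-Yap/Taz-KO libraries were below both WT libraries on each diet, and for Tlr13 both were above, with Mertk in the sum or without it. The lower ratios were thus those of most genes, and say nothing of the level in a given cell type. No test was made on these ratios.

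**Figure D3:**
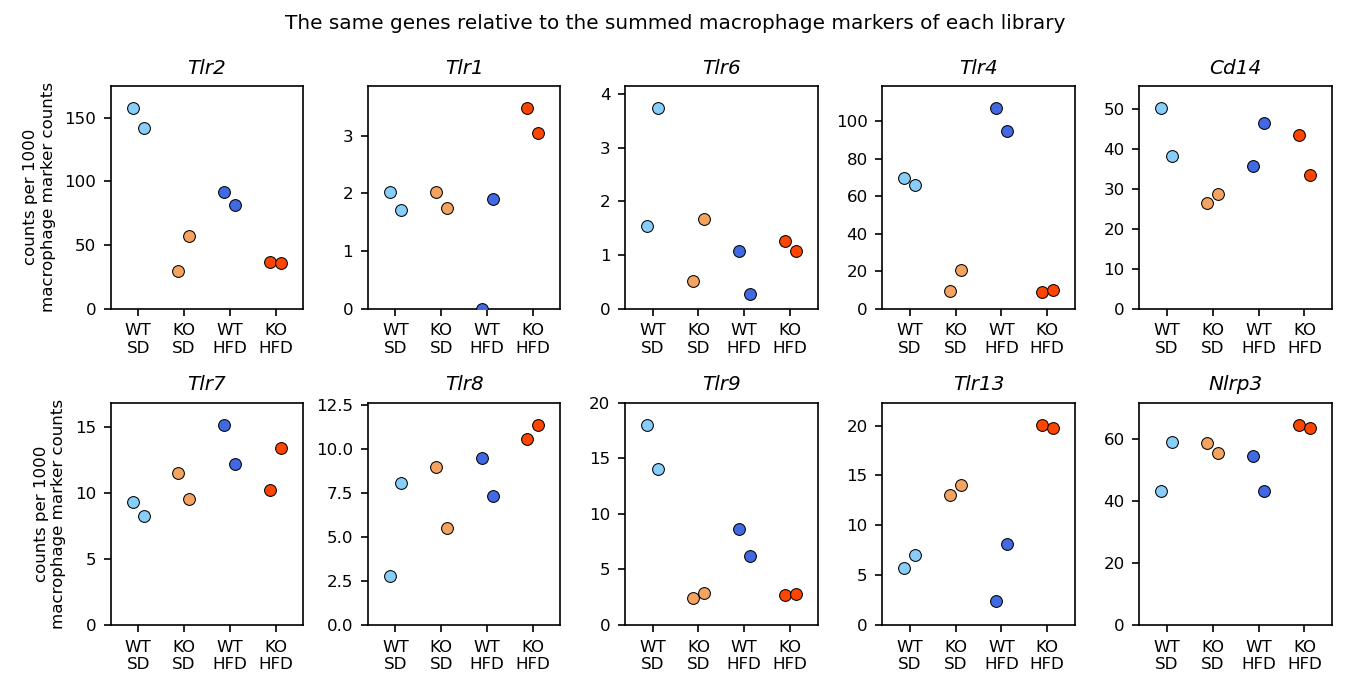
Level of each gene per 1000 summed counts of 13 macrophage markers (y axis, linear, from 0, own scale for each gene) in each library; KO stands for Ad-Yap/Taz-KO and points are libraries. Nlrp3 lies between 43.2 and 64.7 in all libraries, a range that moves when Mertk is left out of the sum, Tlr13 is highest in KO HFD (20.1 and 19.7), and Tlr2, Tlr4 and Tlr9 are lower in KO than in WT on both diets, as most genes are on this scale.

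Markers of other leukocytes were sparse. The summed level was 12 to 85 for 6 neutrophil markers, 14 to 126 for 5 B cell markers and 30 to 221 for 5 T cell markers, and Ly6g, Retnlg and Cd3d were at 0 in several libraries of both genotypes. Their sums were nonetheless higher in both Ad-Yap/Taz-KO than in both WT libraries on HFD, at 71 and 60 against 12 and 12 for neutrophil, 54 and 89 against 35 and 14 for B cell and 101 and 221 against 32 and 30 for T cell markers. Of each list 1 gene was called higher there, namely Csf3r (64 and 49 against 5 and 0, log2 4.54, limma adjusted p = 0.00133), Cd79a (40 and 65 against 7 and 10, 2.47, adjusted p = 0.00505) and Cd4 (82 and 200 against 28 and 18, 2.46, adjusted p = 0.00316), and 0 on SD. These 3 genes carried most of the sums in the Ad-Yap/Taz-KO HFD libraries. In WT on HFD, Csf3r made up 5 and 0 of the 12 and 12, and Cd79a 7 of the 35 in replicate 1. Without these 3 genes the genotypes overlapped on HFD for neutrophil (7 and 11 against 7 and 12) and B cell markers (14 and 24 against 28 and 4). They stayed apart for T cell markers (19 and 21 against 4 and 12). S100a8, a further neutrophil marker, was at 1 and 1 against 7 and 11 and was not called (-2.29, limma adjusted p = 0.116). These sums without 1 gene were chosen after seeing the data, and their part in the results was not tested. Of 5 plasmacytoid dendritic cell markers, 3 were tested and 0 called on either diet, with Siglech or Ly6d at 0 in every library. Their summed level of 2930 to 5011 was nearly all Tcf4 (2810 to 4866), and without it the sum was 120 to 261. Fibroblast and progenitor markers were called higher in Ad-Yap/Taz-KO on HFD for 3 of 5 (summed level 62637 and 64781 against 21727 and 21756 in WT) and on SD for 1 of 5, endothelial markers for 2 and 0 of 5, and mesothelial markers had 1 called higher and 1 lower on HFD. The labelled cell type was evident in every library, as Adipoq lay between 13284 and 54830 and Plin1 between 12435 and 57222. On HFD, 7 of 8 adipocyte markers were called lower in Ad-Yap/Taz-KO (median -1.54), with Adipoq at 54830 and 53308 in WT against 27322 and 13284 in Ad-Yap/Taz-KO, and on SD 0 of 8 were called. The part of this shift in the results was not tested.

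Genes that act with these receptors were examined by list in the HFD comparison. There 17.1% of all genes tested were called higher and 15.1% lower, with a median of 0.10, which is the background for each list. Of 9 co-receptors and trafficking partners, 4 were called higher and 1 lower, with a median of 0.95. Cd180, a receptor homologue that pairs with MD-1, was at 58 and 93 in WT SD, 372 and 270 in Ad-Yap/Taz-KO SD, 29 and 20 in WT HFD and 688 and 632 in Ad-Yap/Taz-KO HFD (4.72, limma adjusted p = 6.45e-07). Ly86, which encodes MD-1, was at 28 and 40, 124 and 53, 15 and 10, and 120 and 167 in the same order (3.43, adjusted p = 0.000324). Lgmn and Unc93b1, which process and transport endosomal receptors, were also called higher.

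Lbp, whose secreted product carries lipopolysaccharide to CD14, ran the other way. It was at 1106 and 1724 in WT SD, 427 and 224 in Ad-Yap/Taz-KO SD, 4774 and 5021 in WT HFD, and 560 and 563 in Ad-Yap/Taz-KO HFD. It was called lower in Ad-Yap/Taz-KO on HFD (-3.12, limma adjusted p = 3.53e-06) and on SD (-2.16, adjusted p = 4e-04). The MD-2 gene Ly96 was low and not called (0.95, 95% interval -0.32 to 2.22). Of the Toll-like receptors outside the 10 genes, 3 could be tested, and Tlr5, the flagellin receptor, was called lower. It was at 36 and 14 in WT SD, 19 and 28 in Ad-Yap/Taz-KO SD, 209 and 177 in WT HFD and 20 and 30 in Ad-Yap/Taz-KO HFD. Both WT HFD libraries were thus above all the others (-2.92, limma adjusted p = 0.00148), and its interaction value was -2.95 (adjusted p = 0.0236). Tlr3 and Tlr11 were not called, and Tlr12 was too low to be tested.

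Signalling genes were called in both directions, as all genes tested were (17.1% higher and 15.1% lower). Of 17 adaptors and kinases, 6 were called higher (Myd88, Ticam1, Ticam2, Irak4, Ikbkb and Ikbke) and 4 lower (Irak1, Irak2, Map3k7 and Ikbkg), with a median of 0.30. Ticam2, the bridging adaptor TRAM, was at 12 and 20 in WT against 130 and 87 in Ad-Yap/Taz-KO on HFD (2.70, limma adjusted p = 0.00093), and 14.47% of its exon bases overlap Tmed7 on the same strand. Ikbke, an IkappaB kinase of the interferon branch, was at 117 and 103 against 683 and 701 (2.65, adjusted p = 3.42e-06), and Ikbkg, the regulatory subunit NEMO, was at 1080 and 1196 against 547 and 372 (-1.33, adjusted p = 0.000561). Of 6 brakes on Toll-like receptor signalling, 1 was called, Tnfaip3, which encodes A20, at 11190 and 11981 against 18464 and 17126 (0.62, adjusted p = 0.00818). That call was lost under upper-quartile scaling (0.58) and with the WT HFD libraries averaged (adjusted p = 0.0829), without either WT HFD library (0.0961 and 0.0622) and without Ad-Yap/Taz-KO HFD replicate 1 (0.57).

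**Figure D4:**
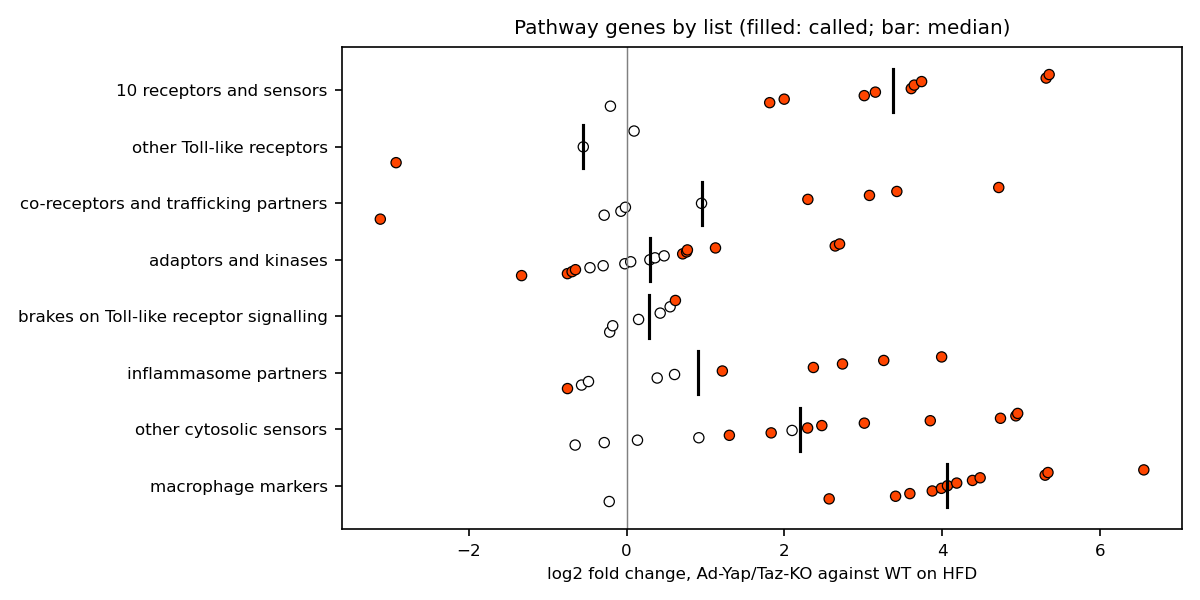
Log2 fold change between Ad-Yap/Taz-KO and WT libraries on HFD (x axis, positive where Ad-Yap/Taz-KO was higher) for the 10 genes, 6 lists of pathway genes and the macrophage markers (rows); each point is a tested gene, filled points were called and bars are medians. The 10 genes (median 3.38) and the macrophage markers (4.07) lie furthest to the right, and adaptors and kinases are spread on both sides of 0 (median 0.30).

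Of 10 partners of the inflammasome, 5 were called higher on HFD (Il1b, P2rx7, Gsdmd, Panx1 and Pycard) and 1 lower (Nek7). Il1b, the main cytokine matured by the inflammasome, was at 134 and 81 in WT SD, 691 and 326 in Ad-Yap/Taz-KO SD, 88 and 126 in WT HFD and 1951 and 1469 in Ad-Yap/Taz-KO HFD (3.99, limma adjusted p = 4.12e-06). P2rx7, the ATP-gated channel upstream of NLRP3, was at 45 and 58 in WT against 471 and 527 in Ad-Yap/Taz-KO on HFD (3.26, adjusted p = 1.27e-05). Gsdmd, the pore-forming substrate, was at 39 and 45 against 241 and 337 (2.74, adjusted p = 0.000118). Casp1 itself was at 163 and 160 against 259 and 235 on HFD and did not pass (0.61, 95% interval -0.08 to 1.30, adjusted p = 0.158). On SD it was at 85 and 49 against 213 and 314 and was called higher (1.99, limma adjusted p = 0.00229). In WT it was called higher on HFD than on SD (1.31, adjusted p = 0.0146). The latter call rests on the close WT HFD libraries, and no value with them averaged is given.

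Among 14 other cytosolic sensors tested, 9 were called higher and 0 lower, with a median of 2.20. Nlrc4, the inflammasome sensor that acts with NAIP proteins, was at 18 and 7 in WT SD, 101 and 120 in Ad-Yap/Taz-KO SD, 6 and 3 in WT HFD and 160 and 167 in Ad-Yap/Taz-KO HFD (4.96, limma adjusted p = 4.45e-05). Naip5, a flagellin sensor, was at 14 and 0 in WT against 104 and 101 in Ad-Yap/Taz-KO on HFD (4.74, adjusted p = 0.00398), and is uncertain because 23.84% of its 75-base stretches also occur in other genes, among them Naip1. Nlrp1b, a further inflammasome sensor, was at 9 and 1 against 65 and 62 (3.85, adjusted p = 0.00176). Without WT HFD replicate 1 or 2 the value was 6.69 or 2.79 for Naip5 and 5.01 or 2.69 for Nlrp1b, and both genes were called each time. Aim2, Nlrp1a, Naip2, Nod2, Nlrc3 and Nlrp6 were the other genes called higher.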

How the data were processed

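RNA of 8 libraries of white adipocytes was depleted of ribosomal RNA and sequenced from a stranded total RNA kit. Per the submitters' processing notes and the methods, the authors used Reaper for trimming and STAR 2.5.2b for alignment to GRCm38, counted them on exons with featureCounts 1.5.1, leaving out reads of several genes or places, and tested with DESeq2 1.14.1. The strand setting is not given in the sources used here. The deposited values are a score: gene counts that the authors divided by a size factor and rounded. Rounding kept whole reads from being recovered, so no count model was run, and depth was estimated from the spacing of the values. Reads carry no molecular identifiers, so the limit of up to 3 reads behind a 0 covers counting error only. The 95% intervals rest on the spread between libraries.

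Genes with a mean of at least 5 (18800 of 30387) were tested with limma 3.58.1 in R 4.3.3 on log2(value + 1), with 4 group means in 1 fit, 4 residual and 8.59 prior degrees of freedom. All adjusted p-values come from this test, with Benjamini-Hochberg adjustment over all genes tested. With 2 libraries against 2, an exact permutation test cannot go below p = 0.333. The members, gene lists, motifs and comparisons were chosen with earlier results of these data known, so no list is independent evidence. The text names all 10 members, the deleted genes and, per pathway list, called genes on HFD, with values for the 3 largest changes at a mean of at least 20. Other genes given with values, such as Ly96, Casp1 and single cell type markers, were chosen after their values were seen. Of the 3 genes nearest in course to each member, all are named except 1, which is not reported here. Gene positions, exon lengths and shared 75-base stretches came from GENCODE on GRCm38, where 30259 identifiers matched. Tables and figures were made with Python 3.11.15, numpy 2.4.6, pandas 2.3.3 and matplotlib 3.10.9. Alternatives were other pseudocounts, filters and scalings, fits on 2 groups, a replicate block, WT HFD libraries averaged and each library left out. Alternatives added after seeing the data left Mertk out of the summed macrophage markers and 1 gene out of each leukocyte sum.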

Additional observations from a re-analysis of the deposited data

Results flagged for a closer look

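For 5 genes the effect of Ad-Yap/Taz-KO differed between the diets by the interaction test (limma, adjusted p of at most 0.05). The effect on HFD minus the effect on SD was 2.43 on the log2 scale for Tlr9, 2.30 for Tlr13, 1.91 for Tlr2, 1.87 for Cd14 and 1.51 for Nlrp3. With each of the 8 libraries left out in turn, the call held in 8 fits for Tlr2, 7 for Cd14, 5 for Tlr9, 3 for Nlrp3 and 2 for Tlr13. With 2 libraries in a group, no library could be examined as an outlier.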

How the results depend on the processing

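On HFD, 9 members were called under all alternatives that tested all 10 (7 of 8 at a mean of at least 50), with Tlr4 at 0.18 when scaled to the same total. On SD 3 members were called with no filter, with only the 2 groups compared, and 3 to 5 with a library left out. For diet in WT, 2 were called with no filter, 7 when scaled to the same total, 1 with WT HFD libraries averaged and 1 to 5 with a library left out. For diet in Ad-Yap/Taz-KO this range was 0 to 2. For the interaction, 1 was called with no filter, 6 when scaled to the same total, 2 with WT HFD libraries averaged and 1 to 5 with a library left out. Tlr8 for diet in WT changed sign with pseudocount 8 (-0.026), the same total (-0.40), upper-quartile scaling (-0.002) and libraries left out (-0.74 to 0.74), as did Tlr6 on SD (-0.037 to 1.15), Tlr4 for diet in Ad-Yap/Taz-KO (-0.28 to 0.052) and Tlr4 in the interaction (-0.044 to 0.29) with libraries left out. Leaving Mertk out of the summed macrophage markers, an alternative chosen after seeing the data, turned the difference between Ad-Yap/Taz-KO and WT per 1000 marker counts for Nlrp3 (from 15.2 to -8.24 on HFD and from 6.22 to -2.80 on SD), Tlr8 on HFD (2.57 to -1.43) and Tlr1 on SD (0.01 to -0.33). The causes were not tested.

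Replicate differences of the groups correlated between -0.107 and 0.04, so equal numbers do not pair libraries. With a replicate block 9, 5, 4, 0 and 5 members were called in the 5 comparisons. Over all genes, scaling to the same total moved the median on HFD from 0.10 to 0.48 and for the interaction from 0.10 to 0.52. It moved the share of calls that were higher from 53.1% to 77.2% on HFD, from 48.7% to 11.6% for diet in WT, from 35.6% to 25.2% for diet in Ad-Yap/Taz-KO and from 49.9% to 80.9% for the interaction. Calls over all genes went from 6053 to 3445 on HFD with WT HFD libraries averaged, from 886 on SD to 438 with no filter and 461 with 2 groups, and from 3377 for diet in WT to 1701 with no filter and 539 with libraries averaged. For diet in Ad-Yap/Taz-KO they went from 202 to 112 with pseudocount 0.1 or the block, 330 with pseudocount 8, 3 with no filter, 0 with 2 groups (2059 at an unadjusted p under 0.05 in limma) and 28 with libraries averaged, and for the interaction from 3274 to 721 with no filter and 517 with libraries averaged. Depth limits Tlr1 and Tlr6, which had at most 7 counts in a WT HFD library.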
